A study of Mus musculus with 42 samples.

Results

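The catalytic subunits of the proteasome and the genes that load its peptides onto MHC class I were examined in thymic epithelial cells (TEC) sorted from mice. These cells form the thymic stroma in which T cells develop. The set holds 10 genes chosen by symbol from the 53465 genes of the count table: the constitutive subunits Psmb6, Psmb7 and Psmb5, the immunoproteasome subunits Psmb9, Psmb10 and Psmb8, the thymoproteasome subunit Psmb11, the peptide transporter genes Tap1 and Tap2, and the tapasin gene Tapbp. All 10 passed the filter on low counts.

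The study measured RNA in 42 libraries of 200 sorted cells each, in 3 epithelial subsets that were all sorted as Epcam+ and CD45-. Cortical TEC (cTEC) were UEA- and Ly51+, and the medullary TEC were UEA+ and Ly51lo and were split by MHC class II into MHCII-low (mTEClo) and MHCII-high (mTEChi) cells. For each subset 5 Control libraries, 7 KO libraries and 2 Ski flox Control libraries were made, and the series compares TEC with and without an epithelial deletion of Ski, a transcriptional corepressor. The sources used here do not give the Cre driver, the strain, the age or the exact alleles of the Control and Ski flox Control animals. Since the labels do not say which animal a library came from, the p-values describe how much these libraries vary, part of which may be technical.

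The proteasome cuts cytosolic proteins into peptides at catalytic β1, β2 and β5 sites. In the immunoproteasome, which interferon-gamma induces and which hematopoietic cells carry constitutively, these sites are taken by β1i (Psmb9), β2i (Psmb10) and β5i (Psmb8). Cortical epithelial cells instead place β5t (Psmb11) at the β5 position, which forms the thymoproteasome known for its part in the positive selection of CD8 T cells. TAP1 and TAP2 form the transporter that moves the peptides into the endoplasmic reticulum, and tapasin holds empty MHC class I molecules next to it.

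Libraries under 100000 counts were left out, which removed mTEClo Control replicate 2 (82 counts) and mTEChi Control replicate 2 (41828 counts). The other 40 libraries held 3217251 to 7068077 counts and left 5, 4 and 4 Control libraries in cTEC, mTEClo and mTEChi, beside 7 KO and 2 Ski flox Control libraries in each. By library number 19 are early and 21 late, a division that no label names, and all Ski flox Control libraries are late. In number order the early set ends with mTEChi Control replicate 3 and the late set starts with cTEC Control replicate 4. The numbers run on without a gap there, and the column headers carry 1 flowcell identifier. Neither of these places the cut, so the sets are a working division and not a known batch. Where groups or sets are said not to overlap, the share of all genes doing so is given only for KO against Ski flox Control. Levels are CPM, a gene's count as a share of its library's counts after scaling of library sizes, in the usual parts-per-million unit. Ski itself ranged from 0 to 42.2 CPM in the 7 cTEC libraries labelled KO and from 3.36 to 27.2 CPM in Control, from 0.523 to 16.9 against 7.83 to 44.5 in mTEClo, and from 0 to 16.9 against 8.21 to 23 in mTEChi. The Ski ranges overlap in every subset, and counts over the whole gene do not check a deletion of some exons, so KO below means the libraries labelled KO. Aire, the medullary autoimmune regulator, averaged 580 CPM in mTEChi Control against 41.8 CPM in cTEC Control. The summed level of 8 cortical markers (Psmb11 not among them) lay between 2392 and 20780 CPM in 13 of the 14 cTEC libraries and at 561.6 CPM in cTEC KO replicate 5. That library goes against its label, and the main KO comparisons that include it are also given without it. The CD45 gene Ptprc, whose protein the sort gated out, averaged 654 CPM in cTEC Control, 309 in mTEClo Control and 193 in mTEChi Control. The summed level of 14 myeloid and dendritic cell markers ranged from 987 to 9727 CPM over the 40 libraries.

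The constitutive subunits were the steadiest of the 10 genes. Over the 40 libraries the coefficient of variation was 20.4% for Psmb5, 21.9% for Psmb6 and 22% for Psmb7, against 35.0% for Psmb10, 42.1% for Psmb8, 47.7% for Psmb9, 44.8% for Tap2, 48.6% for Tap1, 50.8% for Tapbp and 194% for Psmb11. Psmb6, which encodes β1, the caspase-like site, averaged 435 ± 67.3 CPM (SD, n = 5) in cTEC Control, 529 ± 101 (n = 4) in mTEClo Control and 578 ± 68.5 (n = 4) in mTEChi Control. Psmb7, the trypsin-like β2 subunit, averaged 79.0 ± 18.6, 64.9 ± 5.87 and 81.1 ± 11.2 CPM in the same order. Psmb5, the chymotrypsin-like β5 subunit, averaged 111 ± 23.6, 129 ± 20.96 and 130 ± 23.7 CPM. No difference between subsets in these 3 genes passed the test in either genotype. The largest of their log2 fold changes was 0.41 (SE 0.20) for Psmb6 in mTEChi against cTEC of Control libraries (edgeR adjusted p = 0.229).

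**Figure D1:**
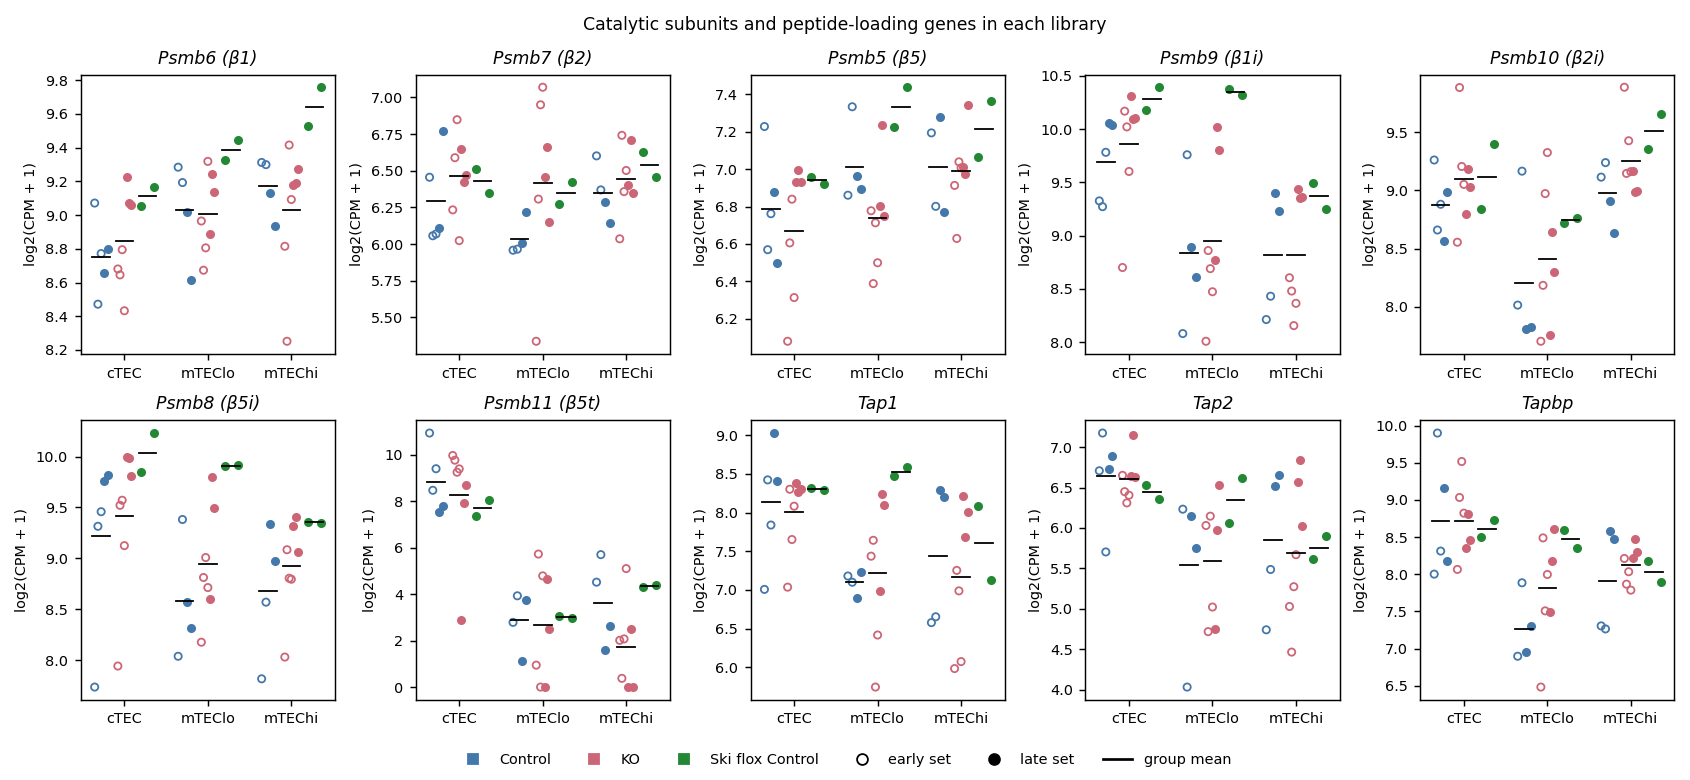
Level of each of the 10 genes in each of the 40 libraries, as log2(CPM + 1) on the vertical axis, by subset on the horizontal axis; colour marks genotype, open points the early and filled points the late set, and the line is the group mean. Psmb11 separates cTEC from medullary cells except for 1 cTEC KO library, and Psmb9 and Psmb8 are lowest in early libraries.

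Psmb11 set cTEC apart from both medullary subsets. The 5 cTEC Control libraries held 1962, 354, 676, 183 and 223 CPM, the first 3 of them early. The 4 mTEClo Control libraries held 5.90, 14.2, 1.195 and 12.3 CPM, and the 4 mTEChi Control libraries held 21.9, 51.1, 2.02 and 5.27 CPM. Every medullary Control library lay below every cTEC Control library and, within cTEC Control, the 3 early libraries lay above the 2 late ones. In bulk libraries, fewer cells of a type and less RNA per cell cannot be told apart. The 7 cTEC KO libraries held 1003, 872, 609, 673, 6.51, 243 and 419 CPM, where the low value is replicate 5. In KO, mTEClo libraries ranged from 0 to 52.0 CPM with a median of 4.71, and mTEChi libraries from 0 to 33.3 CPM with a median of 3.04, and 2 libraries of each had no count, which allows up to 3 counts.

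In the model of all tested genes, Psmb11 was lower in mTEClo than in cTEC of KO libraries (log2 fold change -5.13, SE 1.202, edgeR adjusted p = 0.0118) and lower in mTEChi than in cTEC (-6.40, SE 1.28, adjusted p = 0.00222). Without cTEC KO replicate 5 these were -5.36 (adjusted p = 0.00840) and -6.57 (adjusted p = 0.00171). In Control libraries the differences were -6.33 (SE 1.67, adjusted p = 0.0593) and -5.08 (SE 1.56, adjusted p = 0.0853), which missed the threshold although the groups did not overlap. Over the alternatives the KO adjusted p ran from 8.42e-06 to 0.312 in mTEClo and from 9.89e-09 to 0.149 in mTEChi. The mTEClo call ended by limma, with only the groups compared and in either set alone, and the mTEChi call by limma and in the early set alone. Within each set the Control groups did not overlap either. In Control, Psmb11 was 5.90 to 14.2 CPM in early mTEClo against 354 to 1962 in early cTEC, and 1.195 to 12.3 against 183 to 223 in the late set.

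The RefSeq promoter table (GRCm38.p6, 250 bases before to 50 after the gene start) holds 8 of the 10 genes and has no entry for Psmb7 and Tap2. On both strands these windows were searched for 3 short motifs: GACGC, the core bound by FOXN1, the transcription factor that controls thymic epithelial identity; TTCNNNGAA, the gamma-activated site found at interferon-gamma responsive genes; and GAAANNGAA, an interferon-stimulated response element-like motif. Over all 32851 promoters in the table, 27.2% hold the first, 8.30% the second and 8.56% the third. Only the Psmb11 and Psmb8 windows held a match to any of them. The stretches around those matches are shown because these 2 genes encode alternative subunits of the β5 position, and capitals mark the motif on the plus strand of the genome. The GACGC matches of Psmb11 are on the opposite strand and so read GCGTC, and all 4 stretches lie within the 5′ UTR of a GENCODE isoform of their gene.
Psmb11, match at -239 (chr14:54625060-54625089): gctgacaggtgGCGTCttcagagtgtagga
Psmb11, match at -62 (chr14:54625236-54625265): agcttctccacaGCGTCctcctcctcctcc
Psmb8, match at -193 (chr17:34197990-34198019): ccccatccccagGACGCacgcctaggtgga
Psmb8, match at -97 (chr17:34198088-34198117): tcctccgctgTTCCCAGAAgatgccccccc
A match is a description of these letters and not a measured binding site. Psmb9 and Tap1 start 226 bases apart on opposite strands, and neither window held a match.

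Of the 10 genes, 5 lie together in the MHC region of chromosome 17 in GRCm38: Tapbp (33915899 to 33929292), Psmb9 (34181987 to 34187764), Tap1 (34187553 to 34197225), Psmb8 (34197721 to 34201454) and Tap2 (34203527 to 34216321). Psmb5 (54614119 to 54618022) and Psmb11 (54621433 to 54629556) are neighbours on chromosome 14, and Psmb10, Psmb6 and Psmb7 are on chromosomes 8, 11 and 2. The library chemistry does not mark strand, so reads from overlapping exons cannot be told apart. Psmb9 and Tap1 share 212 exon bases, Psmb8 shares 498 with an antisense gene, Tapbp 904 with an antisense gene and 149 with Zbtb22, Tap2 533 with a long noncoding gene, Psmb7 405 with Nek6 and Psmb5 109 with a microRNA gene. Reads in these stretches are uncertain.

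At the β5 position, per-length levels of Psmb5, Psmb8 and Psmb11 were set against each other as shares of their sum. Scaled by exon length, Psmb11 made up 27.0% ± 22.4 (SD, n = 5) of the β5 sum in cTEC Control, 0.651% ± 0.428 (n = 4) in mTEClo Control and 1.71% ± 1.93 (n = 4) in mTEChi Control. Scaled by coding length the Psmb11 shares were 37.6%, 1.41% and 3.67%. Psmb8, β5i, made up 46.1% ± 21.8, 43.9% ± 6.24 and 45.4% ± 11.96 by exon length, and 53.8%, 72.7% and 71.9% by coding length. The order of the Psmb8 shares across subsets therefore depends on the length used, while Psmb11 was highest in cTEC with either. Without cTEC Control replicate 1 the Psmb11 share in cTEC was 17.6% by exon length, and without mTEChi Control replicate 3 it was 0.83% in mTEChi.

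Within cTEC the makeup of the β5 position varied widely from library to library. By coding length, Psmb11 made up 83.0% in cTEC Control replicate 1 and 74.5% in cTEC KO replicate 1, and Psmb8 made up 9.81% and 19.9% there. Those 2 early libraries also held the highest summed cortical markers (20780 and 14860 CPM) and the lowest summed myeloid and dendritic markers in cTEC (1369 and 987 CPM). They also held the most fibroblast markers, 2485 and 6110 CPM over 7 genes against 864 CPM or less in the other 12 cTEC libraries, and Control replicate 1 the most thymocyte markers (4807 CPM). The part of these cells in the shares was not tested. In late cTEC Control replicates 4 and 5, Psmb11 made up 14.45% and 17.02% and Psmb8 75.0% and 75.2% by coding length, with 6158 and 5528 CPM of summed myeloid and dendritic markers. The mean shares in cTEC KO were 36.5% for Psmb11 and 55.5% for Psmb8, and without replicate 5 they were 42.4% and 49.99%.

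**Figure D2:**
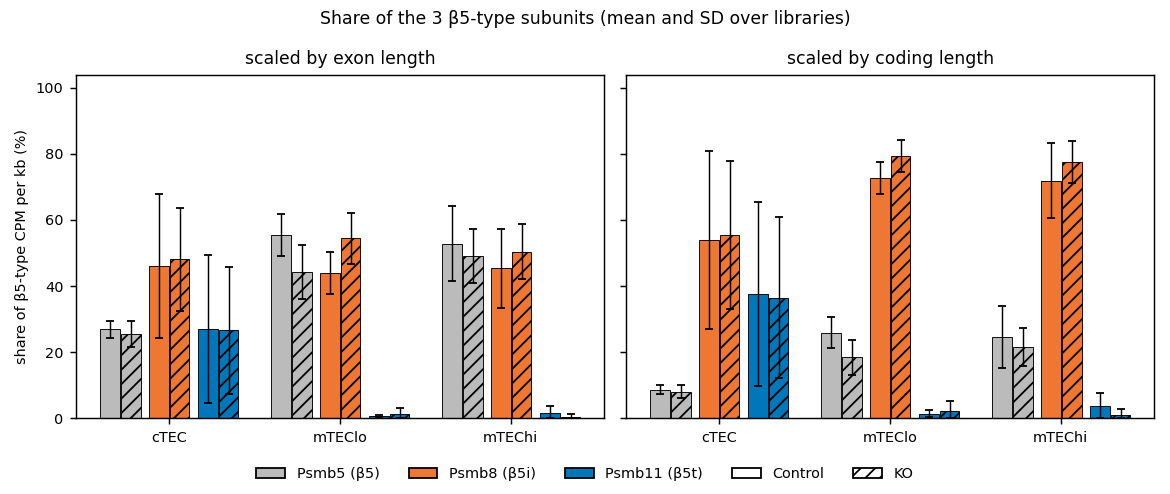
Share of Psmb5, Psmb8 and Psmb11 in their summed CPM per kilobase (vertical axis, %), by subset, scaled by exon length on the left and by coding length on the right; bars are means over Control (plain) and KO (hatched) libraries and error bars are SD, drawn no lower than 0. Psmb11 reaches 27.0% in cTEC Control by exon length and 37.6% by coding length against 0.651% and 1.41% in mTEClo Control.

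The immunosubunit Psmb9 was lower in mTEChi than in cTEC in both library sets of Control and KO, and the difference passed the test in KO. In Control it stood at 641, 617, 880, 1063 and 1050 CPM in cTEC (replicates 1 to 3 early, 4 and 5 late), at 270, 866, 474 and 391 CPM in mTEClo, and at 295, 344, 676 and 601 CPM in mTEChi (first 2 early, last 2 late). The pooled mTEChi range overlapped cTEC, because late mTEChi libraries reached the early cTEC level. Within a set they did not overlap. In Control, Psmb9 was 295 to 344 CPM in early mTEChi against 617 to 880 in early cTEC, and 601 to 676 against 1050 to 1063 in the late set. In KO, Psmb9 was 284 to 388 CPM in early mTEChi against 415 to 1150 in early cTEC, and 651 to 692 against 1092 to 1271 in the late set. The fold change of mTEChi against cTEC passed the test in KO, where Psmb9 fell by 1.03 on the log2 scale (SE 0.29, edgeR adjusted p = 0.0219). Without cTEC KO replicate 5 it was -0.93 (adjusted p = 0.0391). The call was lost by limma, with all 42 libraries and in either set alone, with adjusted p up to 0.0777 and down to 0.00237 over the alternatives. In Control it was -0.83 (SE 0.37, adjusted p = 0.192), and the difference between genotypes was -0.20 (SE 0.47, adjusted p = 1). For mTEClo against cTEC, Psmb9 gave -0.77 in Control (SE 0.37, adjusted p = 0.269) and -0.83 in KO (SE 0.29, adjusted p = 0.0722), and neither passed. In Ski flox Control the 2 mTEClo libraries averaged 1303 CPM of Psmb9, and the 2 cTEC libraries 1250.0 CPM.

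Psmb8 averaged 664 ± 276 CPM (SD, n = 5) in cTEC Control, 406 ± 180 (n = 4) in mTEClo Control and 438 ± 179 (n = 4) in mTEChi Control. Its cTEC values were 212, 636, 702, 867 and 901 CPM, so replicate 1 lay below all 4 of the others. The medullary differences from cTEC were between -0.71 and -0.51 on the log2 scale in both genotypes and none passed the test. In the late set alone, with 2 Control libraries per group, Psmb8 did not overlap. The smallest p an exact permutation test allows there is 0.333, so the lack of overlap is a description and not a test. Psmb8 was 318 to 379 CPM in mTEClo and 501 to 646 in mTEChi, against 867 to 901 in cTEC Control. In the early set it overlapped, at 262 to 666 CPM in mTEClo and 224 to 379 in mTEChi against 212 to 702 in cTEC Control.

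Psmb10, β2i, followed another order. It averaged 474 ± 93.1 CPM (SD, n = 5) in cTEC Control, 320 ± 170 (n = 4) in mTEClo Control and 508 ± 90.5 (n = 4) in mTEChi Control, and in KO 569 ± 182, 367 ± 159 and 623 ± 155 (n = 7 each). The mTEClo libraries were the low ones, but in Control and in KO 1 of them lay within the mTEChi range of the same genotype: Control replicate 3 at 573 CPM and KO replicate 4 at 640.5 CPM. The log2 difference of mTEChi from mTEClo was 0.76 in KO (SE 0.24, edgeR adjusted p = 0.163) and 0.67 in Control (SE 0.32, adjusted p = 0.661), so neither passed. In the late set the groups did not overlap in either genotype, while in the early set they overlapped in both. The late groups held only 2 libraries each in Control and 3 each in KO. Late Psmb10 was 395 to 480 CPM in mTEChi against 223 to 226 in mTEClo in Control, and 506 to 574 against 216 to 399 in KO.

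Subunit ratios within a library compare an inducible subunit with its constitutive partner. They were compared between groups as differences in log2 ratios of CPM + 1 with two-sided exact permutation tests, 63 in all, adjusted together. Of the 7 ratios, 2 passed in each medullary subset against cTEC in Control and 5 in each in KO, and 1 passed between mTEChi and mTEClo in KO. The Psmb11 to Psmb5 ratio was lower than in cTEC Control by -6.16 in mTEClo and by -5.44 in mTEChi, in 4 of 4 libraries each (exact permutation p = 0.00794, the smallest the design allows, adjusted p = 0.0385). In KO the Psmb11 to Psmb5 differences were -5.68 and -6.87 (exact permutation p = 0.00291 and 0.00117, adjusted p = 0.0367 for both), and without cTEC KO replicate 5 they were -6.62 and -7.81 (adjusted p = 0.0147 for both). The Psmb11 to Psmb8 ratio, which sets the thymic against the immune form of β5, differed by -5.29 and -4.67 in Control (adjusted p = 0.0385 for both, exact permutation test) and by -5.14 and -6.06 in KO (adjusted p = 0.0385 and 0.0367). Without cTEC KO replicate 5 the KO differences of this ratio were -6.13 and -7.05.

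The Psmb9 to Psmb6 ratio was also lower in the medulla of Control and KO. In Ski flox Control, which was not tested for ratios, its mean log2 value was 1.17 in cTEC, 0.96 in mTEClo and -0.27 in mTEChi (n = 2 each). In KO the mean was 1.01 ± 0.47 in cTEC, -0.06 ± 0.67 in mTEClo and -0.21 ± 0.58 in mTEChi (SD, n = 7 each). The KO differences from cTEC were -1.07 and -1.23 (exact permutation p = 0.00525 and 0.00291, adjusted p = 0.0385 and 0.0367), with 4 and 3 of the 7 medullary libraries below every cTEC library. In Control they were -1.13 and -1.29 and did not pass (exact permutation p = 0.0238 and 0.0317, adjusted p = 0.0882 and 0.1053). Without cTEC KO replicate 5 the mTEChi difference in KO was -1.21 (adjusted p = 0.0420, exact permutation test) and the mTEClo one -1.06, which no longer passed (adjusted p = 0.0565). Within the sets the Psmb9 to Psmb6 difference of mTEChi from cTEC in KO was -1.48 in the early set (exact permutation p = 0.0571) and -0.89 in the late set (exact permutation p = 0.1, the smallest it allows).

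The Psmb10 to Psmb7 ratio was lowest in mTEClo. In KO it was lower in mTEClo than in cTEC by -0.64 (adjusted p = 0.0385, exact permutation test) and higher in mTEChi than in mTEClo by 0.82, with 6 of 7 mTEChi libraries above every mTEClo library (exact permutation p = 0.00117, adjusted p = 0.0367). The early set gave 0.87 for the latter (exact permutation p = 0.0286) and the late set 0.75 (exact permutation p = 0.1). In Control the 2 differences were -0.41 and 0.46 and did not pass (adjusted p = 0.556 for both, exact permutation test). The Psmb8 to Psmb5 ratio was lower in mTEChi than in cTEC of KO by -0.81 (adjusted p = 0.0393, exact permutation test), a call lost without cTEC KO replicate 5 (-0.76, adjusted p = 0.0759). The summed immunosubunits over the summed constitutive ones differed from cTEC by -0.82 in mTEClo KO and -0.65 in mTEChi KO (adjusted p = 0.0385 and 0.0416, exact permutation test), the second of which was lost without that library (adjusted p = 0.0629). Calls, more than sizes, changed when 1 library was left out. In KO none of the 7 ratios passed in either medullary subset against cTEC without cTEC KO replicate 2, 3, 4 or 7, nor in mTEClo against cTEC or mTEChi against mTEClo without mTEClo KO replicate 3 or 5, while 3 passed in mTEChi against cTEC without cTEC KO replicate 5 or 6 or mTEChi KO replicate 3, 4 or 7. With a library left out, the KO difference of mTEChi from cTEC ranged from -7.81 to -6.49 for Psmb11 to Psmb5 (adjusted p up to 0.0551, exact permutation test) and from -1.39 to -1.05 for Psmb9 to Psmb6 (adjusted p up to 0.0556). In Control none passed when any 1 library was left out, which raises the smallest p the design allows.

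**Figure D3:**
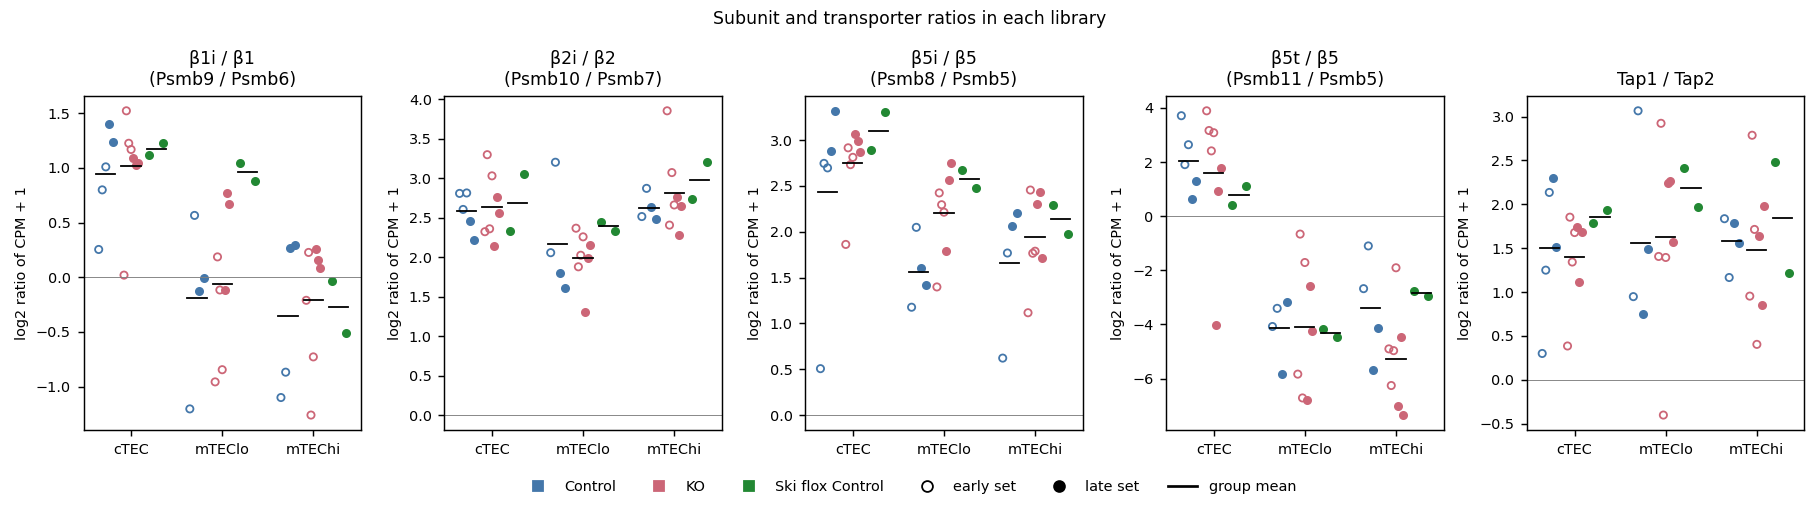
Log2 ratio of CPM + 1 of each inducible or thymic subunit to its constitutive partner, and of Tap1 to Tap2, in each of the 40 libraries (vertical axis), by subset (horizontal axis), with colour for genotype, open points for the early and filled points for the late set, and a line at the group mean. The Psmb11 to Psmb5 ratio lies above 0 in every cTEC library but 1, at -4.02, and below 0 in every medullary library.

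By length-scaled shares, Psmb9 made up 49.6% ± 7.62 (SD, n = 5) of the β1 sum in cTEC Control, 31.8% ± 10.3 (n = 4) in mTEClo and 29.5% ± 10.4 (n = 4) in mTEChi by exon length, and 67.3%, 48.9% and 46.2% by coding length. In Control the Psmb9 share was lower in both medullary subsets with either length. In the 2 Ski flox Control libraries of each subset it averaged 53.6% in cTEC, 49.95% in mTEClo and 29.9% in mTEChi by exon length. In Control Psmb10 made up 92.3%, 89.5% and 92.6% of the β2 sum by exon length and 85.9%, 81.3% and 86.3% by coding length. Its counts per kilobase thus lay above those of Psmb7 in every subset. Psmb7 itself averaged 23.1 CPM per kilobase of exon in cTEC Control against 232 for Psmb6, and its reads shared with Nek6 are uncertain. The part of hematopoietic cells in the Psmb10 share was not tested.

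Among the loading genes, Tapbp was the 1 called between cTEC and mTEClo, in Control. There, cTEC libraries held 255, 955, 317, 574 and 288 CPM and mTEClo libraries 118, 236, 123 and 157 CPM, with no overlap in either set. The difference was -1.59 on the log2 scale (SE 0.39, edgeR adjusted p = 0.0415). This call was lost without mTEClo Control replicate 1, 4 or 5 or without cTEC Control replicate 2 or 4, with adjusted p up to 0.170 and log2 fold changes between -1.85 and -1.18. It was also lost by limma, with detected genes as a covariate, with all 42 libraries, with only the groups compared and in the early set alone. Over its alternatives the adjusted p ran from 0.000527 to 0.659, and the call held in 10 of 20. In KO the Tapbp difference was -0.83 (SE 0.30, adjusted p = 0.0754) and did not pass. In mTEChi, Tapbp was at 157, 153, 381 and 356 CPM in Control, and its difference from cTEC was -0.87 (SE 0.38, adjusted p = 0.178).

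Tap1 averaged 311 ± 147 CPM (SD, n = 5) in cTEC Control, 137 ± 13.8 (n = 4) in mTEClo Control and 200 ± 120 (n = 4) in mTEChi Control. Tap2 averaged 104.2 ± 33.7, 53.0 ± 26.8 and 64.8 ± 35.6 CPM. Neither passed in any comparison of subsets; the log2 differences of mTEClo from cTEC in Control were -1.19 (SE 0.47, edgeR adjusted p = 0.184) for Tap1 and -0.98 (SE 0.48, adjusted p = 0.278) for Tap2. In KO the Tap2 difference was -0.89 (SE 0.38, adjusted p = 0.121). Tap2 levels in KO did not overlap between mTEClo and cTEC within either set: they were 25.3 to 69.8 against 78.3 to 99.5 CPM in the early set and 25.8 to 91.2 against 97.7 to 141 CPM in the late set. Those groups held 4 early and 3 late libraries each, and no share of all genes without overlap is given. The Tap1 to Tap2 ratio showed no difference that passed, and its means ranged from 1.399 to 1.627 in the Control and KO groups.

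Read against all 23040 genes tested, the counts of called members were as follows. In Control, 1 of the 10 genes (Tapbp) was lower in mTEClo than in cTEC, where 0.0694% of all genes were called lower and 0.703% higher, and none of the 10 was called in mTEChi against cTEC, where 0.0434% were lower and 1.07% higher. In KO, 1 gene (Psmb11) was lower in mTEClo than in cTEC, where 0.49% of all genes were lower and 5.19% higher, and 2 genes (Psmb11 and Psmb9) were lower in mTEChi than in cTEC, where 1.82% were lower and 12.9% higher. Between mTEChi and mTEClo none of the 10 was called, in Control (0% of all genes called, 1720 at an unadjusted p under 0.05, 79 by limma and 201 by DESeq2) or in KO (0.0174%). limma and DESeq2 each called Psmb10 there in KO, where they called 2.76% and 2.8% of all genes. The median log2 fold change over the 10 genes was -0.74 for mTEClo against cTEC in Control, beside 0.14 over all genes, and -0.62 beside 0.25 for mTEChi against cTEC. In KO the medians were -0.63 beside 0.25 and -0.61 beside 0.28.

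Between KO and Control none of the 10 genes was called in any subset, and 0% of all genes tested were called in each of the 3 comparisons. At an unadjusted p under 0.05 there were 2443 genes in cTEC, 1639 in mTEClo and 1586 in mTEChi, none of them a member. Over all genes DESeq2 called 520, 229 and 146 and limma 10, 11 and 14, again without a member. For the 9 genes other than Psmb11, the log2 differences lay between -0.27 and 0.65, with standard errors of 0.18 to 0.44. The largest was Tapbp in mTEClo, at 118, 236, 123 and 157 CPM in Control and 88.4, 359, 181, 255, 179, 289 and 389 CPM in KO (log2 fold change 0.65, SE 0.36, edgeR adjusted p = 0.749), where 4 of the 7 KO libraries lay above every Control library. Psmb7 in mTEClo followed with 0.47 (SE 0.26, adjusted p = 0.764). For Psmb11 the differences were -0.31 (SE 1.10) in cTEC (-0.10 without KO replicate 5), 0.89 (SE 1.25) in mTEClo and -1.63 (SE 1.17) in mTEChi, all with adjusted p = 1, so a change of several fold in either direction was not detectable with these libraries. No ratio passed between KO and Control either; the nearest was Psmb8 to Psmb5 in mTEClo, higher in KO by 0.64 (exact permutation p = 0.0515, adjusted p = 0.154). The KO effect itself did not differ between subsets for any of the 10 genes (edgeR adjusted p of 0.920 or more), with 0% of all genes called in those 3 comparisons. At an unadjusted p under 0.05 they held 1701, 1673 and 1421 genes, and limma called 4, 7 and 0 and DESeq2 373, 364 and 139.

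The second comparison sets the same KO libraries against Ski flox Control. It shares the KO libraries with the first, and it called none of the 10 genes and 0% of all genes in each subset. At an unadjusted p under 0.05 there were 1137 genes in cTEC, 1410 in mTEClo and 726 in mTEChi; limma called 24, 88 and 47 and DESeq2 1033, 997 and 105. Of the 10 genes only Psmb9 in mTEClo was called by either, by limma (log2 fold change -1.33, adjusted p = 0.0414). In mTEClo the 2 Ski flox Control libraries were high for several immune and loading genes: Psmb9 stood at 1326 and 1279 CPM, Psmb8 at 958 and 965 CPM, and Tap1 at 354 and 384 CPM. All 7 mTEClo KO libraries lay below both for Psmb9 (256 to 1035 CPM), Psmb8 (288 to 893 CPM) and Tap1 (52.6 to 301 CPM), and for the constitutive Psmb6 (407 to 638 against 641 and 696 CPM). These are 4 of the 10 genes, where 4.12% of all genes tested separated the same way. The log2 differences were -1.24 (SE 0.41) for Psmb9, -0.88 (SE 0.42) for Psmb8, -1.10 (SE 0.52) for Tap1 and -0.37 (SE 0.23) for Psmb6 (edgeR adjusted p = 0.686 for each). This comparison mixes the sets, since 4 of the 7 KO libraries are early and both Ski flox Control libraries late. In the late set alone the differences were -0.75 for Psmb9, -0.55 for Psmb8, -0.68 for Tap1 and -0.31 for Psmb6. The mTEClo Control libraries were also below Ski flox Control, at 270 to 866 CPM for Psmb9. The summed myeloid and dendritic markers were 5264 and 9727 CPM in the 2 mTEClo Ski flox Control libraries, against 1143 to 7636 CPM in mTEClo KO and 1427 to 4697 CPM in mTEClo Control, and their part in these differences was not tested. In mTEChi, Psmb6 alone separated, at 737 and 865 CPM in Ski flox Control against 304 to 682 CPM in KO (log2 fold change -0.58, SE 0.23, edgeR adjusted p = 1), as 3.48% of all genes did. None of the 10 separated in this way in cTEC, where 1.84% of all genes did.

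**Figure D4:**
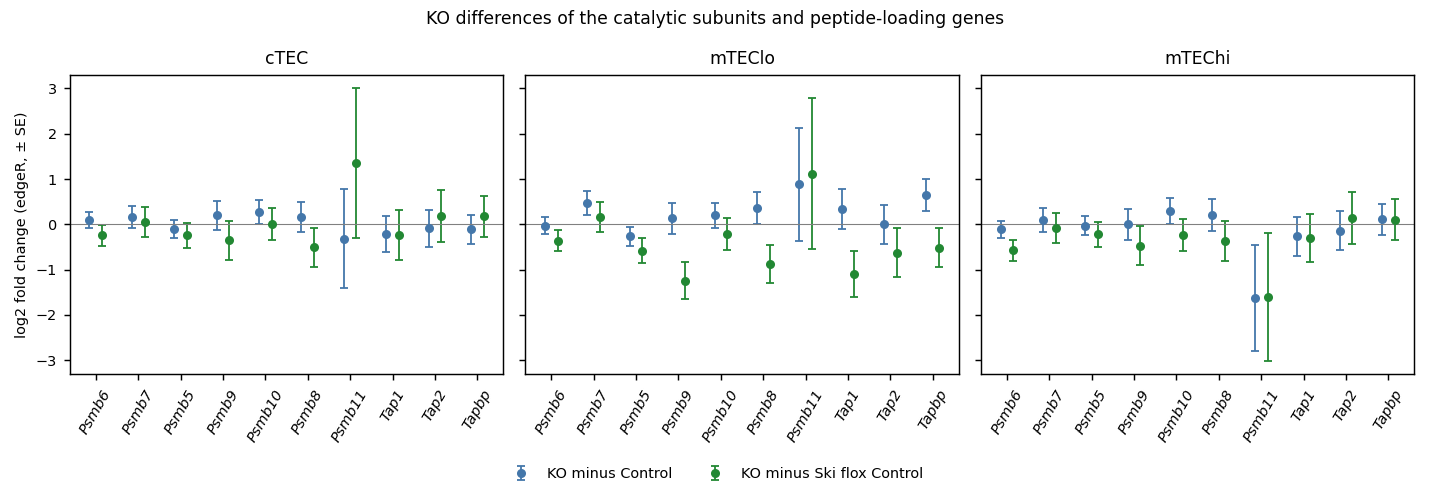
Log2 fold change of KO against Control (blue) and of the same KO libraries against Ski flox Control (green) for each of the 10 genes, by subset; points are edgeR estimates and bars are 1 standard error. None passed the threshold, and in mTEClo Psmb8, Psmb9, Psmb10, Tap1 and Tapbp lie above 0 against Control and below 0 against Ski flox Control, where Psmb9 is at -1.24.

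Pooled over genotypes, Psmb8, Psmb9 and Tap1 differed more between the early and the late set in each subset than the constitutive genes. All Ski flox Control libraries are late, so these pooled ratios also carry the makeup of the sets. The ratio of late to early means was 0.959 to 1.24 for Psmb5, Psmb6 and Psmb7 in the 3 subsets. For Psmb9 it was 1.46 in cTEC, 1.91 in mTEClo and 1.98 in mTEChi, where the sets did not overlap (284 to 388 CPM early, 601 to 720 CPM late). In mTEClo the genotypes went apart: Psmb9 averaged 568 CPM early and 433 CPM late in Control, 371 and 788 CPM in KO, and 1303 CPM in the late Ski flox Control libraries. For Psmb8 the late to early ratio was 1.77 in cTEC, again without overlap (212 to 759 CPM early, 867 to 1201 CPM late), 1.53 in mTEClo and 1.61 in mTEChi. For Tap1 it was 1.52, 1.85 and 2.53 in the same order, and for Tap2 1.14, 1.42 and 2.32. Tapbp gave 0.791, 1.28 and 1.45. In mTEClo Control alone, Psmb8 (464 CPM early, 348 late) and Tap1 (140.0 and 134 CPM) were not higher in the late set. Psmb10 went the other way, at 0.907, 0.775 and 0.857, and Psmb11 in cTEC averaged 878 CPM early and 215 CPM late, a ratio of 0.245.

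Marker levels also differed between the sets. In cTEC the summed myeloid and dendritic markers averaged 2494 CPM early (987 to 3914) and 5473 CPM late (4286 to 6158), and the summed cortical markers 11130 and 4319 CPM. In mTEChi the myeloid and dendritic sum was 1807 to 4159 CPM early and 3247 to 4367 CPM late, and in mTEClo it averaged 3469 and 4928 CPM. In mTEClo Control alone it was 3062 CPM early and 2193 CPM late. The 12 thymocyte markers averaged 276 CPM early and 746 CPM late in mTEChi and 426 and 2145 CPM in mTEClo. None of the 14 myeloid and dendritic markers was at 0 in all libraries of any Control or KO group. The part of these cells in the early to late differences and in the cTEC to mTEC differences of Psmb8, Psmb9 and Psmb10 was not tested.

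**Figure D5:**
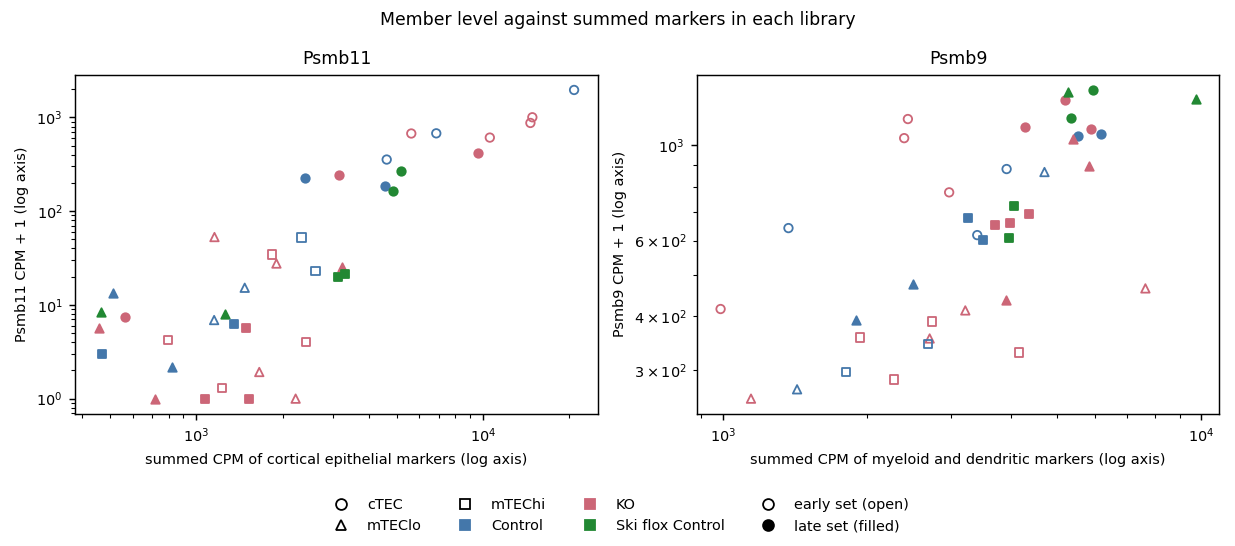
Psmb11 against the summed CPM of 8 cortical epithelial markers (left) and Psmb9 against the summed CPM of 14 myeloid and dendritic markers (right), 1 point per library on log axes, with shape for subset, colour for genotype and fill for set. The cTEC KO library with 561.6 CPM of cortical markers lies among the medullary libraries on the left, and on the right the cTEC libraries with the fewest myeloid and dendritic markers (987 and 1369 CPM) hold 415 and 641 CPM of Psmb9. With 3398 CPM of these markers, cTEC Control replicate 2 holds 617 CPM of Psmb9.

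Some pairs of genes rose and fell together over the libraries of a subset, with 18 relations computed and adjusted together. Psmb8 and Psmb9 correlated at r = 0.876 in cTEC (n = 14, rho = 0.877, permutation adjusted p = 0.00099), 0.963 in mTEClo (n = 13, rho = 0.89, permutation p = 1e-05, the smallest the resamples allow, adjusted p = 0.00018) and 0.741 in mTEChi (n = 13, rho = 0.753, permutation adjusted p = 0.00976), on log2(CPM + 1). Without the 2 libraries farthest from the median, r was 0.835, 0.939 and 0.814. Within the early and late sets r was 0.769 and 0.855 in cTEC and 0.928 and 0.993 in mTEClo. In mTEChi it was -0.0041 (n = 6) and 0.48 (n = 7), so the pooled relation was not seen in the early set there. The part of the difference between the sets in it was not tested.

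Psmb9 and Tap1, the divergent neighbours on chromosome 17, gave r = 0.666, 0.694 and 0.82 in cTEC, mTEClo and mTEChi (permutation adjusted p = 0.0282, 0.0239 and 0.00976; rho = 0.398, 0.61 and 0.775). Within the early and late sets r was 0.536 and -0.379 in cTEC, -0.0384 and 0.967 in mTEClo, and -0.35 and 0.486 in mTEChi, so this relation did not hold within both sets of any subset. Without the 2 farthest libraries r was 0.69, 0.486 and 0.856. The constitutive pair Psmb5 and Psmb6 gave r = 0.725, 0.557 and 0.712 (permutation adjusted p = 0.00976, 0.0804 and 0.0153). Without the 2 libraries farthest from the median these were 0.719, 0.261 and 0.362, so r fell in mTEClo and mTEChi. Within the early and late sets it was 0.754 and 0.543 in cTEC, 0.421 and 0.744 in mTEClo, and 0.751 and 0.617 in mTEChi. Psmb5 and Psmb11, neighbours on chromosome 14, gave r of -0.226, -0.00491 and 0.028 (permutation adjusted p of 0.509 or more).

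The genes whose pattern over the 40 libraries was most like Psmb11, of 12231 compared, were Cxcl12 (r = 0.84), Prss16 (0.834), Mmp2 (0.824), Diras2 (0.822) and Ctsl (0.79). Cxcl12 encodes a chemokine, Prss16 the thymus-specific serine protease and Ctsl cathepsin L, and these 3 are among the cortical markers. The mean of Psmb8, Psmb9 and Psmb10 was most like Lsp1 (r = 0.929), Iscu (0.917), Rnf115 (0.916), Scpep1 (0.898) and Tmem123 (0.892). Lsp1, which encodes a leukocyte-specific protein, averaged 2908 CPM in cTEC Control, 780 in mTEClo Control and 1244 in mTEChi Control. These correlations are a description over libraries that share subsets and sets.

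Outside the catalytic subunits, called proteasome genes were found in the 19S regulatory particle. None of the 7 α ring, 4 non-catalytic β, 4 activator or 5 assembly chaperone genes was called in any comparison. Among the activators, the PA28 genes Psme1 and Psme2 were the most abundant, at 869 ± 438 and 1098 ± 590 CPM (SD, n = 5) in cTEC Control, 596 ± 405 and 631 ± 383 (n = 4) in mTEClo Control, and 717 ± 306 and 1083 ± 364 (n = 4) in mTEChi Control. Of 18 genes of the 19S regulatory particle, 3 were lower in mTEChi than in cTEC of KO, where 1.82% of all genes were called lower. These were Psmd4, which encodes a ubiquitin receptor of the particle (-0.80, SE 0.18, edgeR adjusted p = 0.00510), Psmd7 (-0.54, adjusted p = 0.0171) and Psmd1 (-0.72, adjusted p = 0.0247). Psmd4 was the 1 gene of the 18 that was also lower in mTEClo than in cTEC of KO (-0.69, edgeR adjusted p = 0.0196), beside 0.49% of all genes. In Control, 18 of the 18 log2 differences of mTEClo from cTEC and 17 of 18 of mTEChi were below 0 with none called, with medians of -0.29 and -0.28 beside 0.14 and 0.25 over all genes.

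Of 8 MHC class I genes none was called in any comparison. B2m, the invariant light chain, averaged 4218 ± 1840 CPM (SD, n = 5) in cTEC Control, 5112 ± 814 (n = 4) in mTEClo Control and 5603 ± 1103 (n = 4) in mTEChi Control, and the heavy chain gene H2-D1 5137 ± 2340, 4483 ± 708 and 5241 ± 1248 CPM. H2-D1 and its relatives are near-identical copies, and the counting could split their reads, so their levels are uncertain. Of 5 further loading and trimming genes, Calr, which encodes the chaperone calreticulin of the loading complex, was higher in mTEChi than in cTEC of KO, by 1.03 (SE 0.23, edgeR adjusted p = 0.00483). Of all genes tested, 12.9% were called higher and 1.82% lower in that comparison. Among the regulators and interferon-gamma pathway genes, the receptor gene Ifngr1 was lower in the same comparison of mTEChi with cTEC of KO (-1.91, SE 0.64, edgeR adjusted p = 0.0427), while its partner Ifngr2 was higher (0.91, SE 0.28, adjusted p = 0.0309). Irf1, an interferon-induced factor, was lower in mTEClo than in cTEC of KO (-0.98, SE 0.25, edgeR adjusted p = 0.0192), at 338 to 597 CPM against 470.0 to 1227 CPM. There, 0.49% of all genes were called lower. No gene described from these lists was called between KO and Control or between KO and Ski flox Control.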

How the data were processed

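RNA-seq of 42 libraries (SMART-Seq v4 and Nextera XT, per the labels' protocols) was deposited by the authors as raw counts of reads per Ensembl gene, not normalised. The submitters' processing notes name SAMtools 1.2, FastQC 0.11.3, Picard 1.134, HTSeq 0.4.1 and the GRCm38 build. The sources used here do not give the aligner, annotation or strand setting. Of the identifiers, 53274 matched GENCODE M21, from which symbols, positions and lengths were taken, and 191 did not.

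The 40 libraries of at least 100000 counts were grouped by the labelled cell type and genotype. In R 4.3.3, edgeR 4.0.16 kept 23040 of 37695 genes with any count (filterByExpr, minimum count 10) and, after TMM scaling, fitted all 9 groups in 1 quasi-likelihood model (biological coefficient of variation 1.4). P-values were adjusted by Benjamini-Hochberg over all genes tested, with a threshold of 0.05. The code of the fit was also run on simulated counts, where recovery of changed genes was required only at a smaller spread. Recovery at the spread of these data is not given here, so that run does not show which changes would be missed. Ratios used a pseudocount of 1 CPM and exact permutation tests, and correlations 100000 resamples, in Python 3.11.15 with SciPy 1.17.1, NumPy 2.4.6 and pandas 2.3.3. Figures were drawn with Matplotlib 3.10.9. The 40 libraries held 3217251 to 7068077 counts, and a count of 0 allows up to 3 counts, which covers counting error only.

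Alternatives were limma 3.58.1, DESeq2 1.42.0, other scalings, filters, covariates and library sets, other pseudocounts and lengths, and leaving out each library. The early-only and late-only gene fits were added after the data were seen. All 10 genes are named in each comparison described; of other lists, up to 4 called genes or the 2 most abundant were eligible, and the 5 nearest patterns. The genes and lists were chosen with earlier results of these data known. A result on the regulator list is not reported here.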

Additional observations from a re-analysis of the deposited data

Results flagged for a closer look

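Of 102 pairs of group and measure, 13 held 1 library far from the rest of its group, where chance gives about 1 in 20. Psmb5 in mTEClo KO replicate 6 was 149.6 CPM, with the other 6 libraries at 82.7 to 110.7. Psmb10 was 944.3 CPM in cTEC KO replicate 2 (others 374.9 to 589.4), 573.2 CPM in mTEClo Control replicate 3 (others 222.8 to 257.4) and 945.9 CPM in mTEChi KO replicate 1 (others 505.5 to 687.3). Psmb11 was 1962 CPM in cTEC Control replicate 1 (others 182.8 to 675.5) and 33.3 CPM in mTEChi KO replicate 4 (others 0 to 4.71). Tap2 was 141.2 CPM in cTEC KO replicate 6 (others 78.3 to 99.5).

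The log2 ratios showed the same few cTEC libraries. The Psmb9 to Psmb6 ratio was 0.01977 in cTEC KO replicate 1, and the Psmb8 to Psmb5 ratio was 0.51 in cTEC Control replicate 1 and 1.86 in cTEC KO replicate 1. The summed immune to constitutive ratio was 0.92 in cTEC Control replicate 1 and 0.91 in cTEC KO replicate 1, and the Psmb11 to Psmb5 ratio was -4.02 in cTEC KO replicate 5. In the left-out library mTEChi Control replicate 2, 101 Psmb6 counts equal 2415 CPM, 35 Psmb9 counts 836.8 and 11 Tap2 counts 263, each above the highest library of its group.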

How the results depend on the processing

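No paired analysis was made because the labels name no animal and carry no replicate numbers. Those used here follow accession order and only name a library. By library number the libraries run as cTEC, mTEClo and mTEChi of 1 genotype, repeated. No label says that such a run came from 1 animal, so the comparisons of subsets treat the libraries as independent. Of the 10 genes, the number called in mTEClo against cTEC of Control (1) was 2 with a filter of 10 CPM in 5 libraries, with library set as a covariate and by DESeq2, 0 with detected genes as a covariate, by limma and in the early set, and 4 in the late set (Psmb8, Psmb9, Tap1 and Tapbp). Of all genes, 3.51% were called in the late set and 7.88% by DESeq2, against 0.773% in the fit of 40 libraries. In mTEChi against cTEC of Control (0) it was 1, Psmb11, with the set covariate, with only the groups compared and by DESeq2. In mTEClo against cTEC of KO (1) it was 2 with RLE factors and either covariate, 3 by DESeq2, and 0 with only the groups compared, in either set and by limma. In mTEChi against cTEC of KO (2) it was 1 with all 42 libraries and in the late set, and 0 in the early set and by limma. For the comparisons with cTEC, the other shares of all genes called under these alternatives are not given here. Those counts therefore describe calls of the 10 genes and no more. The number called was 1 instead of 0 by limma and DESeq2 in mTEChi against mTEClo of KO, and by limma in KO against Ski flox Control of mTEClo. The cause was not tested, though each set holds fewer libraries.

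Leaving out each library gave 0 to 1 called genes in mTEClo against cTEC of Control and 1 to 2 in KO, where Psmb9 was added without cTEC KO replicate 1 or mTEClo KO replicate 6 or 7, and Psmb10 without mTEClo KO replicate 4. The other counts of genes did not move. Ratios passing ranged over 0 to 0 in both Control comparisons with cTEC (2 in each), 0 to 5 and 0 to 6 in mTEChi and mTEClo against cTEC of KO (5 in each), and 0 to 1 in mTEChi against mTEClo of KO (1). A pseudocount of 10 CPM left 1 ratio in mTEChi against cTEC of Control, and all 42 libraries left 1 in mTEClo. No fold change or ratio reversed in a way that changed a call. Of the fold changes, 3606 kept their call or lack of one, including uncalled ones that changed sign, 24 gained and 20 lost the threshold. For ratios these counts were 975, 1 and 137. In each set alone the 15 ratios called with the 40 libraries count as lost, without a comparison with the threshold.

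Shares depended on length. With coding length and with no length scaling, Psmb8 was 72.7% and 73.4% in mTEClo and 71.9% and 72.4% in mTEChi, and Psmb11 was 1.41% and 1.55%, and 3.67% and 4.04%. Psmb9 was 67.3% and 65.5% in cTEC, 48.9% and 46.9% in mTEClo, and 46.2% and 44.2% in mTEChi, and Psmb10 85.9% and 85.7%, 81.3% and 81.1%, and 86.3% and 86.1%. Leaving out each Control library in cTEC, mTEClo and mTEChi gave 17.6% to 31.4%, 0.494% to 0.835% and 0.83% to 2.24% for Psmb11, 41.5% to 55.2%, 41.2% to 46.1% and 42.2% to 51.1% for Psmb8, 47.6% to 52.5%, 28.0% to 36.3% and 26.4% to 32.9% for Psmb9, and 92.0% to 92.8%, 87.7% to 90.6% and 92.2% to 92.8% for Psmb10.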
